A study of Mus musculus with 6 samples.

Results

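Collagen genes and the genes of collagen-processing enzymes were read from 2-colour arrays of cultured mouse embryonic kidneys. The collagens were all genes whose array name is Col, a number, a and a number. The processing genes were the lysyl hydroxylases Plod1 to Plod3, the lysyl oxidases Lox and Loxl1 to Loxl4, Pcolce, Pcolce2, Serpinh1, Leprel1 and Leprel2. Leprel1 and Leprel2 are older array names, and the current symbols P3h2 and P3h3 are used here. This gave 53 genes, 40 collagens and 13 processing genes, out of 27670 names on the array. They were measured by 94 of 41174 probes, on 112 spots per array.

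Metanephroi, the paired embryonic kidneys, came from CD1 mouse embryos at stage E13.5 and were kept as explants. Each kidney of a pair received a different drug for 6 h, either Scriptaid or Nullscript, both at 2.0 µg/ml. Scriptaid inhibits histone deacetylases through its hydroxamic acid group, and Nullscript is a relative with a shorter carbon chain that serves as the inactive control. RNA of both treatments was hybridised together, and each of 3 biological replicates had an array pair of opposite dyes, 6 arrays in total. Both drugs are on every array, so every value below is a ratio between the drugs and not against untreated kidneys. How many embryos went into each replicate is not known here, so p-values measure the spread between these 3 replicates.

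Collagens are extracellular proteins whose chains wind into a triple helix. In the endoplasmic reticulum, prolyl and lysyl residues of the chains are hydroxylated and the helix is held by the chaperone Serpinh1. Outside the cell, propeptides are cut off and lysyl oxidases start the cross-links between molecules. In the developing kidney, type IV collagen forms the basement membranes of tubules, glomeruli and vessels, and the stroma makes fibrillar collagens.

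Throughout, the Scriptaid channel and the Nullscript channel are the channels so labelled, and a positive log2 ratio means a higher signal in the Scriptaid channel. The direction of this label is not settled. H1f0, Gsn, Txnip, Cdkn1a and H1f2, which rise with histone deacetylase inhibitors in other cells, were lower in the Scriptaid channel, with log2 ratios between -1.72 and -0.91. Ccnd1, Myc and Tyms, which fall in other cells, were higher there, at 1.90, 1.71 and 0.73. The kidney regulator Wt1, which the study is known for describing as reduced by Scriptaid, was also higher in the Scriptaid channel (0.97 ± 0.07, SD, n = 3). With the names of the drugs swapped, all signs below would turn, while sizes and p-values would stay.

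Between 91.5% and 96.5% of the 43379 non-control spots were well above background in each channel, and the log2 ratios of 2 arrays correlated across probes at 0.73 to 0.94 over all array pairs and at 0.75 to 0.86 within a replicate. The series text speaks of fewer arrays than the 6 used here, and the dye fields of each array were followed. One slide held replicates 1 and 2, and a different slide held replicate 3. Of 10 markers of early kidney, among them Six2, Wt1, Pax2 and Ret, all 10 were well above background on all 6 arrays. The listed markers of bone and adrenal cortex all were too, as were most spots, so this mark cannot tell the tissue. All 53 collagen and processing genes were also well above background in both channels of all 6 arrays, so none was lost through the filter on dim probes. The number of arrays limits the precision.

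More collagen and processing genes were higher in the Scriptaid channel than in the Nullscript channel, and most differences were small. By limma with Benjamini-Hochberg adjustment over 26500 genes, at an adjusted p under 0.05, 22 of the 53 were higher in the Scriptaid channel (41.5%) and 12 were lower there (22.6%). Over all genes tested these shares were 22.5% and 23.7%, and 46.2% passed in either direction against 64.2% of the 53 genes. The median log2 ratio of the 53 genes was 0.096, against -0.0090 over all genes, and the median absolute ratio was 0.20 against 0.10. Passing and differing at least 1.5-fold held for 4 of them (7.55%) and for 10.9% of all genes. The 4 were Col8a2, P3h3, Pcolce and Col5a2, and of these Col8a2 was the 1 more than 2-fold apart. Each of the 4 is measured by 1 probe, so no further probe could be set beside it. Without replicate 3 the counts fell to 14 higher and 6 lower, and with the slide as a block they were 18 and 10. Of the collagens 15 were higher and 9 lower in the Scriptaid channel, and of the processing genes 7 were higher and 3 lower.

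**Figure D1:**
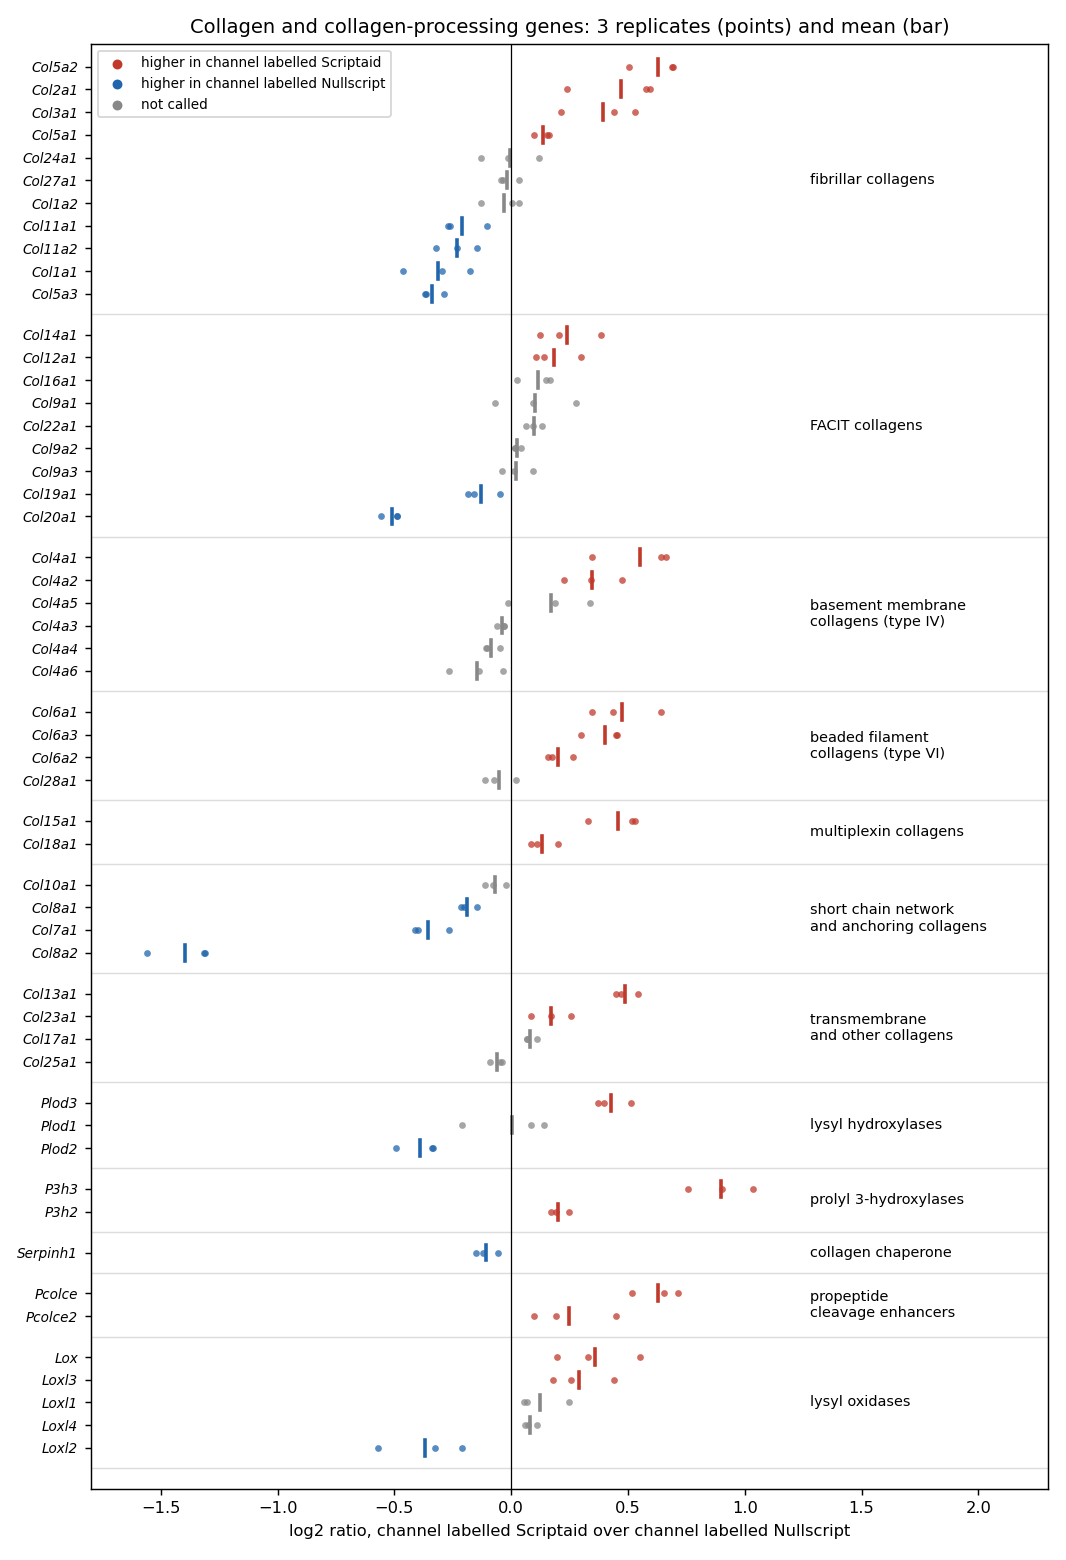
Log2 ratio of the Scriptaid channel over the Nullscript channel (horizontal axis) of each of the 53 genes, grouped by role; points are the 3 replicates, bars their mean, and colours show the limma call. Col8a2 lies farthest left at a mean of -1.40 and P3h3 farthest right at 0.90, with most other genes close to 0.

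The sequences just upstream of the transcription start are shown for 3 of these 4 genes, which have an entry in the RefSeq promoter table (build GRCm38.p6) and lie at both ends of the range. Each line gives the 250 bases before the annotated start, 5′ to 3′ on the strand of the gene, with the GC box GGGCGG in capitals on either strand. Col8a2 lies at chr4:126286544-126286793 on the plus strand, P3h3 at chr6:124857718-124857967 on the minus strand and Pcolce at chr5:137611405-137611654 on the minus strand.
Col8a2: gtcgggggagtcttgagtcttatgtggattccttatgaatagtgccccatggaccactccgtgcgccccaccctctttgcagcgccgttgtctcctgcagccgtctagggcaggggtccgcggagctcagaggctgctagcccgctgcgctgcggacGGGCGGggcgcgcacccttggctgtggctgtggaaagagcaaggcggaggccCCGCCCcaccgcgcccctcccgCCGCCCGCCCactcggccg
P3h3: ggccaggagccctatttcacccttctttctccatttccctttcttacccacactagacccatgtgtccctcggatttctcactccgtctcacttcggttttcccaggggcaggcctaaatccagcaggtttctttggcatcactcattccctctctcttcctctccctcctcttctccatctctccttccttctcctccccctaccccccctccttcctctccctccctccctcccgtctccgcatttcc
Pcolce: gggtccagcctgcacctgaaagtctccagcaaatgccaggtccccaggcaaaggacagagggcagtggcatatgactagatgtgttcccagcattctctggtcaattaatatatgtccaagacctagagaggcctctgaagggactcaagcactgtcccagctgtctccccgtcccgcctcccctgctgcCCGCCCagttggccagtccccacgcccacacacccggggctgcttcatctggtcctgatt
The Col8a2 stretch held 4 GC boxes, the last pair of which overlap, and 24 CG dinucleotides. The Pcolce stretch held 1 GC box and 5 CG dinucleotides, and the P3h3 stretch held no GC box and 5 CG dinucleotides. The letters CCAAT and TATAAA, searched on both strands, stood in none of the 3.

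Of the 53 genes, 39 had an entry in that table, with 42 stretches in all because some genes have more than 1 start. A GC box stood in 24 of the 42 (57.1%) and in 32.7% of all 32851 stretches of the same length. The 42 also held more CG dinucleotides, a median of 10 against 6 over all, and the GC box shares were not adjusted for this. CCAAT stood in 31.0% of the 42 and in 33.9% of all, and TATAAA in 14.3% and 12.4%. By call, a GC box stood in 8 of the 17 stretches of genes higher in the Scriptaid channel, in 7 of 9 of those lower and in 9 of 16 of those not called. These are matches of letters, given as a description.

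Type VIII collagen is a short-chain collagen that forms networks, made of the chains Col8a1 and Col8a2. The normalised log2 intensity of Col8a2 was 10.17, 9.95 and 10.09 in the Scriptaid channel and 11.74, 11.26 and 11.41 in the Nullscript channel of replicates 1, 2 and 3. Every Scriptaid value was below every Nullscript value. The log2 ratio was -1.56, -1.31 and -1.32, a mean of -1.40 ± 0.14 (SD, n = 3), which is 2.63-fold higher in the Nullscript channel (limma adjusted p = 0.000162). It was close to the same under both dye orientations, -1.38 with Scriptaid in Cy3 and -1.41 with Scriptaid in Cy5. Col8a1 differed in the same direction by -0.19 ± 0.04 (adjusted p = 0.00594), and its call was lost without replicate 3. The ratio of Col8a1 exceeded that of Col8a2 by 1.21 ± 0.18 over the 3 replicates.

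The other members of the short-chain and anchoring group had ratios below 0. Col7a1, the collagen of the anchoring fibrils that tie epithelial basement membrane to the tissue beneath, was lower in the Scriptaid channel in all 3 replicates, at -0.41, -0.27 and -0.40 (limma adjusted p = 0.00176). Col10a1, a short-chain collagen of hypertrophic cartilage, was at -0.07 ± 0.05 and did not pass (adjusted p = 0.140). In all, 3 of the 4 genes of the group were lower in the Scriptaid channel and 0 were higher, beside 23.7% and 22.5% of all genes tested.

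Type IV collagen is the network former of basement membranes, and its 6 chains are encoded by 3 pairs of neighbouring genes. Of the 6, Col4a1 and Col4a2 passed, both higher in the Scriptaid channel, and the other 4 did not. Col4a1 stood at 12.57, 12.64 and 12.62 in the Scriptaid channel and at 11.91, 12.29 and 11.98 in the Nullscript channel on the normalised log2 scale, without overlap. Its log2 ratio was 0.66, 0.35 and 0.64, with a mean of 0.55 ± 0.18 (limma adjusted p = 0.00278). For Col4a2 the ratio was 0.34, 0.23 and 0.47, with a mean of 0.35 ± 0.12 (adjusted p = 0.00517). In both genes replicate 2 had the smallest ratio. The second probe of Col4a1 gave 0.37 and that of Col4a2 gave 0.41, and both passed.

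Col4a3 and Col4a4, chains of the mature glomerular basement membrane, had ratios of -0.04 ± 0.02 and -0.09 ± 0.03 and did not pass. Col4a5 was at 0.34, -0.01 and 0.19 and Col4a6 at -0.27, -0.04 and -0.14. The replicates of Col4a5 lay on both sides of 0 and those of Col4a6 all below it, and neither gene passed (limma adjusted p of 0.113 and 0.0709). Within a pair, the ratio of Col4a1 exceeded that of Col4a2 by 0.20 ± 0.10, Col4a3 exceeded Col4a4 by 0.05 ± 0.03, and Col4a5 exceeded Col4a6 by 0.32 ± 0.29. Col4a1 and Col4a2 are transcribed away from each other, and their RefSeq promoter entries share 78 bases.

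Type VI collagen forms beaded filaments in stroma and beside basement membranes, and its chains Col6a1, Col6a2 and Col6a3 were all higher in the Scriptaid channel. Col6a1 was at 0.44, 0.35 and 0.64, a mean of 0.47 ± 0.15 (limma adjusted p = 0.00297). The ratio of Col6a3 was 0.45, 0.30 and 0.45, a mean of 0.40 ± 0.09 (adjusted p = 0.00144). All replicates of both genes were above 0. Col6a2 was at 0.26, 0.18 and 0.16, a mean of 0.20 ± 0.06 (adjusted p = 0.00738), and its second probe gave 0.20. On the arrays with Scriptaid in Cy5 alone Col6a2 was at 0.15 and its call was lost (adjusted p = 0.109). The ratio of Col6a1 exceeded that of its neighbour Col6a2 by 0.27 ± 0.18. Further probes of Col6a3 gave 0.03 and -0.08 and did not pass, so its largest ratio comes from the brightest probe. Col28a1, a related collagen, was at -0.05 ± 0.07 and did not pass.

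The multiplexins Col15a1 and Col18a1 are basement membrane collagens that carry sugar chains, and Col18a1 is the source of the fragment endostatin. Both were higher in the Scriptaid channel. Col15a1 was at 0.52, 0.33 and 0.53 (mean 0.46 ± 0.11, limma adjusted p = 0.00160), and its second probe gave 0.14 and did not pass. For Col18a1 the values were 0.09, 0.20 and 0.11 (mean 0.13 ± 0.06, adjusted p = 0.0326), and its second probe gave 0.13 and passed. The Col18a1 call was lost without replicate 2, without replicate 3, with the slide as a block and on the arrays with Scriptaid in Cy5 alone.

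The 11 fibrillar collagens, which build the fibrils of connective tissue, were split, with 4 higher, 4 lower and 3 not passing. Of all genes tested, 22.5% were higher and 23.7% lower. Col5a2, a chain of the type V collagen that starts fibrils, stood at 11.17, 10.87 and 11.06 in the Scriptaid channel and at 10.48, 10.37 and 10.37 in the Nullscript channel. The groups did not overlap, and the log2 ratio was 0.69, 0.50 and 0.69, a mean of 0.63 ± 0.11 or 1.55-fold (limma adjusted p = 0.000555). Its partner chain Col5a1 was higher by 0.14 ± 0.03 (adjusted p = 0.0168), with a second probe at -0.07 that did not pass. Col5a1 minus Col5a2 was -0.49 ± 0.07. The remaining type V chain, Col5a3, was lower in the Scriptaid channel at -0.37, -0.36 and -0.29 (adjusted p = 0.000981), with a second probe at -0.02 that did not pass. The call of Col5a1 was lost without replicate 1, without replicate 3, with the slide as a block, with the mean of its probes and on the arrays with Scriptaid in Cy3 alone.

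Col3a1, the fibril collagen of soft stroma, lies next to Col5a2 in the genome and was at 0.44, 0.21 and 0.53 (mean 0.39 ± 0.16, limma adjusted p = 0.00696). Its other probes gave 0.07 and 0.11 and did not pass. With only the Cy3 arrays of Scriptaid Col3a1 was at 0.27 and its call was lost (adjusted p = 0.0593). Col1a1, the main chain of type I collagen, was at -0.47, -0.18 and -0.29 (mean -0.31 ± 0.15, adjusted p = 0.0111). However, its brightest probe, printed 10 times per array, had at least 1 saturated spot in the Cy5 channel of all 6 arrays. Its ratio was -0.05 with Scriptaid in Cy3 and -0.57 with Scriptaid in Cy5, and the brightest probe without saturation gave 0.02. The remaining probe gave -0.12 and passed. Col1a2, the other chain of type I, was at -0.13, 0.00 and 0.03 and did not pass, with saturation on 1 array. Its second probe, saturated on no array, gave 0.20 and passed (adjusted p = 0.0327 over probes). The Col1a1 call was also lost without replicate 3, without saturated spots and on the arrays with Scriptaid in Cy3 alone. The type I genes thus have no settled direction on these arrays.

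Cartilage fibrils contain Col2a1, Col11a1 and Col11a2. Col2a1 was higher in the Scriptaid channel at 0.59, 0.24 and 0.58 (mean 0.47 ± 0.20, limma adjusted p = 0.00689), with replicate 2 clearly below the others. Its brightest probe is printed 10 times per array, and the SD over these spots was 0.016 to 0.031 within an array. For the brightest Col1a1 probe, also printed 10 times, it was 0.011 to 0.17. The other Col2a1 probes gave 0.19 and 0.06, of which the larger passed. Col11a1 was lower at -0.10, -0.27 and -0.26 (adjusted p = 0.0144) and Col11a2 at -0.32, -0.15 and -0.23 (adjusted p = 0.00898), although their second probes, at -0.12 and 0.05, did not pass. All 3 calls were lost without replicate 3, and that of Col11a1 also without replicate 2, under median centring and on the arrays with Scriptaid in Cy5 alone. With the mean of its probes Col11a2 lost its call. Of 8 cartilage markers, 1 was higher and 3 were lower in the Scriptaid channel, beside 22.5% and 23.7% of all genes tested. Of the 8, 6 were well above background on all arrays. The summed normalised intensity of all 8 was 4928 to 6138 in the Scriptaid channel and 5793 to 6216 in the Nullscript channel. Sox9 is the brightest of the 8, at a mean log2 intensity of 12.1 against 8.66 for Acan, the next. The sums therefore mostly follow Sox9. Comp was lower at -1.16 ± 0.16 and Matn3 at -0.53 ± 0.07, as was Cnmd at -0.32 ± 0.08, which was above background in the Scriptaid channel on 1 array only, while Hapln1 was higher at 0.51 ± 0.16. Acan and Sox9 did not pass (0.00 ± 0.01 and -0.05 ± 0.17), nor did Matn1 and Snorc (-0.03 ± 0.01 and -0.07 ± 0.07). The part of cartilage cells in the ratios of these collagens was not tested. Col24a1 and Col27a1 were at -0.01 ± 0.12 and -0.02 ± 0.04 and did not pass, while 2 further probes of Col27a1 gave 0.32 and 0.18 and passed.

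**Figure D2:**
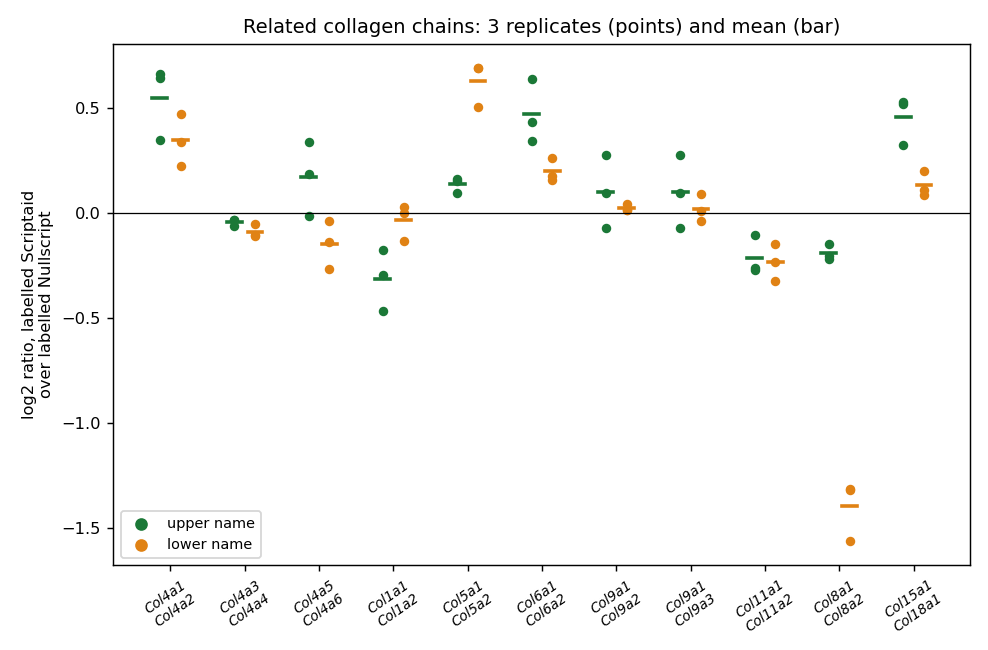
Log2 ratio of the Scriptaid channel over the Nullscript channel (vertical axis) for 11 pairs of related chains; points are the 3 replicates and bars their mean. Col8a2 stands 1.21 below Col8a1, Col5a2 stands above Col5a1, and the Col11a1 and Col11a2 values overlap.

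FACIT collagens sit on the surface of fibrils and link them to other matrix molecules. Of 9 members 2 were higher, 2 lower and 5 did not pass, close to the 22.5% higher and 23.7% lower of all genes tested. Col20a1 was the most different, at 7.86, 7.53 and 7.84 in the Scriptaid channel and 8.42, 8.02 and 8.33 in the Nullscript channel on the log2 scale. Those ranges did not overlap, and the ratio was -0.56, -0.49 and -0.49, a mean of -0.51 ± 0.04 (limma adjusted p = 0.000296). Col14a1 was higher at 0.39, 0.12 and 0.21 (adjusted p = 0.0228), with a second probe at -0.08 that did not pass, and Col12a1 at 0.14, 0.11 and 0.30 (adjusted p = 0.0288). Col19a1 was lower at -0.16, -0.18 and -0.05 (adjusted p = 0.0425). The calls of Col14a1, Col12a1 and Col19a1 were each lost without replicate 3, and those of Col12a1 and Col19a1 also without replicate 1. Without replicate 2 the call of Col19a1 was lost too. The calls of Col14a1 and Col19a1 were also lost with the slide as a block, that of Col14a1 with the mean of its probes and that of Col12a1 under median centring. On the arrays of 1 dye orientation, Col12a1 lost its call with Scriptaid in Cy5 and Col19a1 with Scriptaid in Cy3. The chains of type IX collagen, a cartilage FACIT, were at 0.10 ± 0.17, 0.02 ± 0.02 and 0.02 ± 0.07 for Col9a1, Col9a2 and Col9a3, and did not pass.

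Among the 4 transmembrane collagens, which are anchored in the cell membrane, Col13a1 and Col23a1 were higher in the Scriptaid channel. Col13a1 was at 0.45, 0.47 and 0.54 (mean 0.49 ± 0.05, limma adjusted p = 0.000380), a narrow range, and its second probe gave 0.14 and passed. For Col23a1 the ratio was 0.09, 0.17 and 0.26 (mean 0.17 ± 0.09, adjusted p = 0.0242), and this call was lost without replicate 2, without replicate 3, with the deposited log10 ratios and on the arrays with Scriptaid in Cy3 alone. Col17a1, the collagen of hemidesmosomes, was at 0.08 ± 0.02 and Col25a1 at -0.06 ± 0.03, and neither passed.

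Turning to the enzymes that modify chains inside the cell, the prolyl 3-hydroxylases P3h3 and P3h2 were both higher in the Scriptaid channel. P3h1, of the same family but outside the name rule, was at -0.06 ± 0.13 and did not pass (limma adjusted p = 0.451). P3h3 stood at 11.73, 11.56 and 11.52 in the Scriptaid channel and at 10.70, 10.80 and 10.62 in the Nullscript channel. All Scriptaid values were above all Nullscript values, and the log2 ratio was 1.03, 0.76 and 0.90, a mean of 0.90 ± 0.14 or 1.86-fold (limma adjusted p = 0.000349). P3h2, which acts on type IV collagen among others, was at 0.25, 0.19 and 0.17, a mean of 0.20 ± 0.04 (adjusted p = 0.00493). P3h3 and P3h2 are each measured by 1 probe.

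The 3 lysyl hydroxylases went different ways. Plod3, which also adds sugars to hydroxylysine and is needed for type IV collagen, was higher in the Scriptaid channel at 0.51, 0.37 and 0.40 (mean 0.43 ± 0.08, limma adjusted p = 0.000904). A second Plod3 probe gave 0.37 and passed. Plod2, which hydroxylates the telopeptides of fibrillar collagens, was lower at -0.49, -0.33 and -0.34 (mean -0.39 ± 0.09, adjusted p = 0.00166). The size for Plod2 depended on the dyes, at -0.21 with Scriptaid in Cy3 and -0.57 with Scriptaid in Cy5. Plod1, the hydroxylase of the helix, was at -0.21, 0.09 and 0.14, on both sides of 0, and did not pass.

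Serpinh1, the collagen-specific chaperone also called HSP47, has no settled ratio. Its probe was saturated in the Scriptaid channel on all 6 arrays and in the Nullscript channel on 3. The ratio was 0.41 with Scriptaid in Cy3 and -0.63 with Scriptaid in Cy5, and although the mean of -0.11 passed (limma adjusted p = 0.0453), no fold is given. It counts among the 12 genes called lower, and 10 were called lower when saturated spots were left out.

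Pcolce and Pcolce2 enhance the protease that cuts off the carboxyl propeptide, and both were higher in the Scriptaid channel. Pcolce stood at 12.88, 12.98 and 12.88 in the Scriptaid channel and at 12.17, 12.46 and 12.22 in the Nullscript channel, without overlap. The log2 ratio was 0.71, 0.52 and 0.66, a mean of 0.63 ± 0.10 or 1.55-fold (limma adjusted p = 0.000486). Pcolce2 was at 0.45, 0.10 and 0.19 (mean 0.25 ± 0.18, adjusted p = 0.0448), with replicate 1 well above the others. This call was lost without replicate 1, without replicate 3, with the slide as a block, under median centring and on the arrays of either dye orientation alone.

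Lysyl oxidases oxidise lysines for cross-linking, and of the 5, Lox and Loxl3 were higher, Loxl2 was lower and Loxl1 and Loxl4 did not pass. Lox was at 0.55, 0.20 and 0.33 (mean 0.36 ± 0.18, limma adjusted p = 0.0123), and its call was lost without replicate 3 and on the arrays with Scriptaid in Cy3 alone. Loxl3 was at 0.44, 0.26 and 0.18 (mean 0.29 ± 0.13, adjusted p = 0.0114). In both genes replicate 1 had the largest ratio. Loxl2, which also cross-links type IV collagen, was at -0.33, -0.57 and -0.21 (mean -0.37 ± 0.18, adjusted p = 0.0122), while its second probe gave 0.15 and did not pass. With only the Cy5 arrays of Scriptaid Loxl2 was at -0.29 and its call was lost (adjusted p = 0.150). The ratios of Loxl1 and Loxl4 were 0.12 ± 0.11 and 0.08 ± 0.03.

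Several probes were spotted for 31 of the 53 genes, and the text above takes the brightest as the gene's value. Of 26 further probes of genes that passed, 20 (76.9%) had the sign of the brightest probe, against 84.6% over all called genes with further probes. In the fit over probes, 10 of the 26 passed in the same direction, 0 passed in the opposite direction and 16 did not pass, where 45.2% of all probes passed in either direction. Probes of Col4a1, Col4a2, Col6a2, Col18a1 and Plod3 gave like values. Those of Loxl2, Col6a3, Col2a1, Col3a1, Col13a1, Col15a1, Col14a1, Col5a3, Col1a1 and Col27a1 lay far apart, with Loxl2 at -0.37 and 0.15. What these probes measure within each gene is not known here, since probe sequences were not used.

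**Figure D3:**
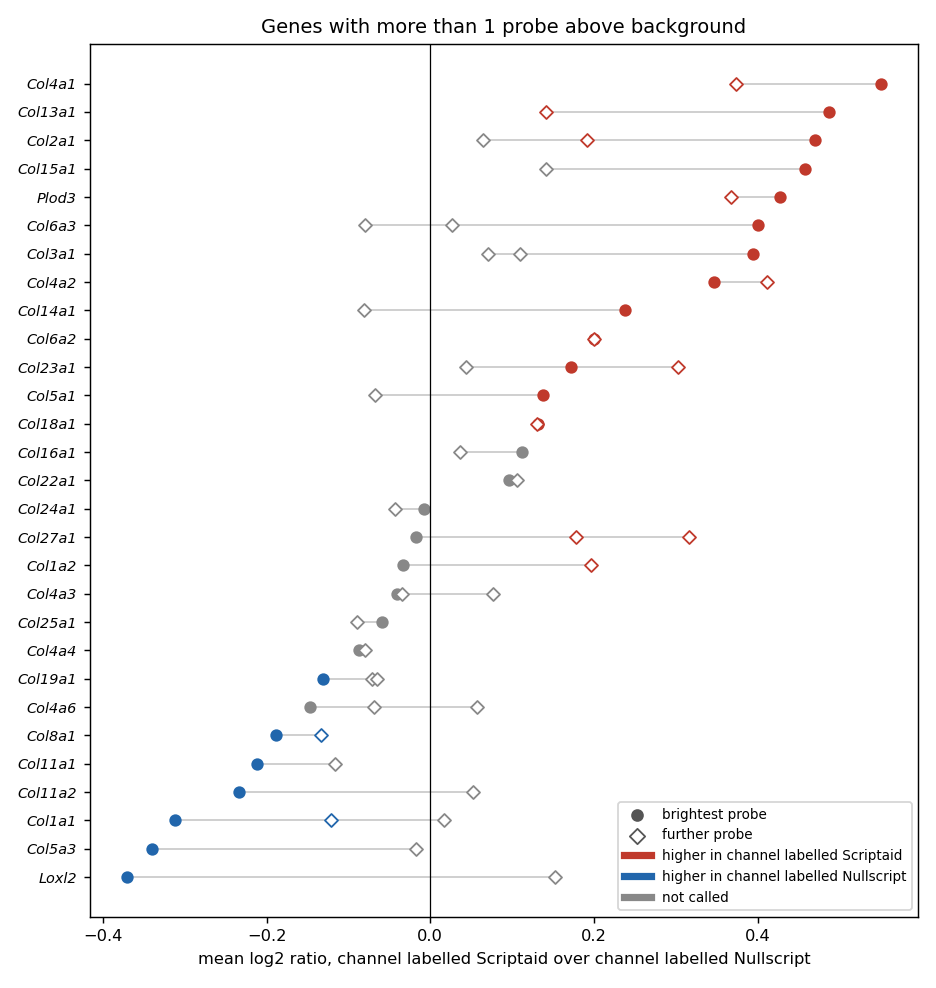
Mean log2 ratio of the Scriptaid channel over the Nullscript channel (horizontal axis) for every probe of the genes with more than 1 probe above background; filled circles are the brightest probe of a gene, open diamonds the further probes, and colours show the limma call over genes or probes. Diamonds lie closer to 0 than the circle in most genes called, and 1 diamond each of Loxl2, Col11a2, Col14a1, Col5a1, Col6a3 and Col1a1 lies on the other side of 0.

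Dye swaps allowed each ratio to be read in both orientations. In a fit with a dye term, 3 of the 53 genes (Serpinh1, Col16a1 and Plod2) had a dye difference that passed, or 5.66%, against 5.43% of all genes. Col16a1, a FACIT collagen, was at 0.29 with Scriptaid in Cy3 and -0.07 with Scriptaid in Cy5 and did not pass for the drugs (0.11 ± 0.08).

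**Figure D4:**
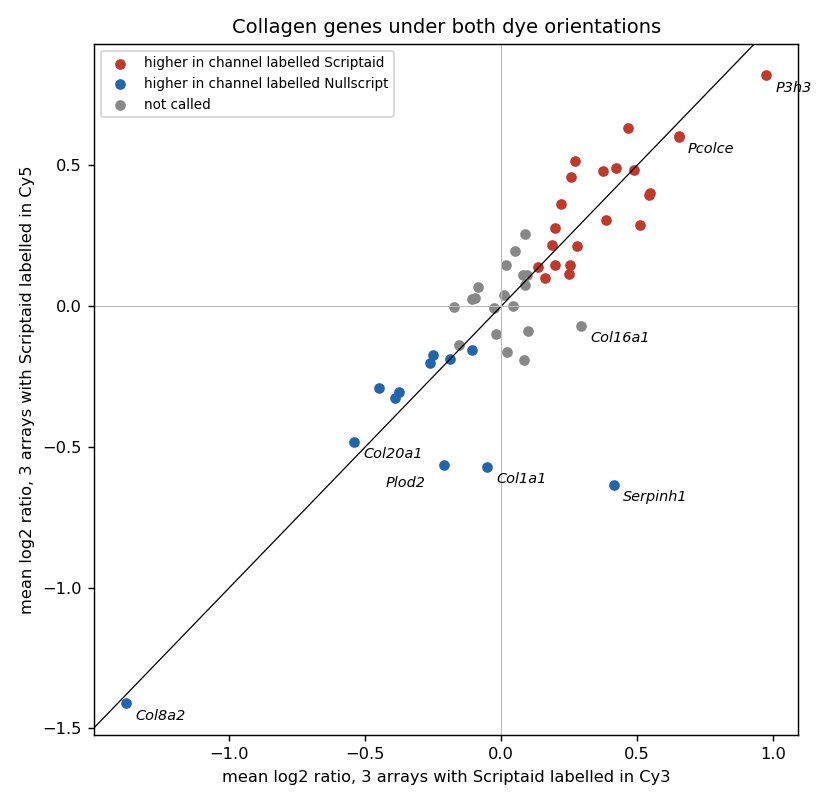
Mean log2 ratio of each of the 53 genes on the 3 arrays with Scriptaid in Cy3 (horizontal axis) and on the 3 with Scriptaid in Cy5 (vertical axis), with the line of equality. Col8a2, P3h3 and Pcolce lie near the line, while Serpinh1, Col16a1, Plod2 and Col1a1 lie below it.

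Genes that work with collagens were listed by role, and 65 of 66 could be tested. Of the 65, 25 (38.5%) were higher and 14 (21.5%) were lower in the Scriptaid channel, beside the 22.5% and 23.7% of all genes. The 10 inducers of collagen genes had 8 higher and 0 lower, with a median of 0.65. Among them Scx, a transcription factor of tendon that drives Col1a1, was at 2.38 ± 0.17, the receptor Tgfbr2 at 1.20 ± 0.16 and its ligand Tgfb3 at 1.17 ± 0.11. Collagen receptors and turnover enzymes had 7 of 13 higher and 2 lower, led by the membrane collagenase Mmp14 at 2.10 ± 0.09, which was saturated in the Scriptaid channel on 3 arrays. The collagen uptake receptor Mrc2 was at 1.21 ± 0.06 and the collagen receptor kinase Ddr1 at 0.84 ± 0.03. Fibril organisers had 5 of 12 higher and 1 lower, with Lum at 1.71 ± 0.17, Emilin1 at 1.20 ± 0.16 and Dcn at 0.66 ± 0.20.

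The intracellular side of the pathway differed in both directions. So did all genes tested, with 22.5% higher and 23.7% lower in the Scriptaid channel. Of 13 genes of prolyl hydroxylation and folding, 4 were higher and 5 lower in the Scriptaid channel. Fkbp10 and Crtap, parts of the folding and 3-hydroxylation machinery, were higher at 0.60 ± 0.16 and 0.54 ± 0.12. P4hb, the shared subunit of prolyl 4-hydroxylase, was lower at -0.49 ± 0.14, and the catalytic subunits P4ha1 and P4ha2, named after their values were seen, were lower at -0.27 ± 0.19 and -0.48 ± 0.16. Of 10 genes of collagen export from the endoplasmic reticulum, 0 were higher and 5 lower, with Sar1a at -0.49 ± 0.18, Klhl12 at -0.41 ± 0.09 and Sar1b at -0.22 ± 0.04. Of 7 propeptide proteases tested, Bmp1, the protease that Pcolce enhances, was higher at 0.57 ± 0.11, Adamts2 was lower at -0.17 ± 0.05 and 5 did not pass.

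**Figure D5:**
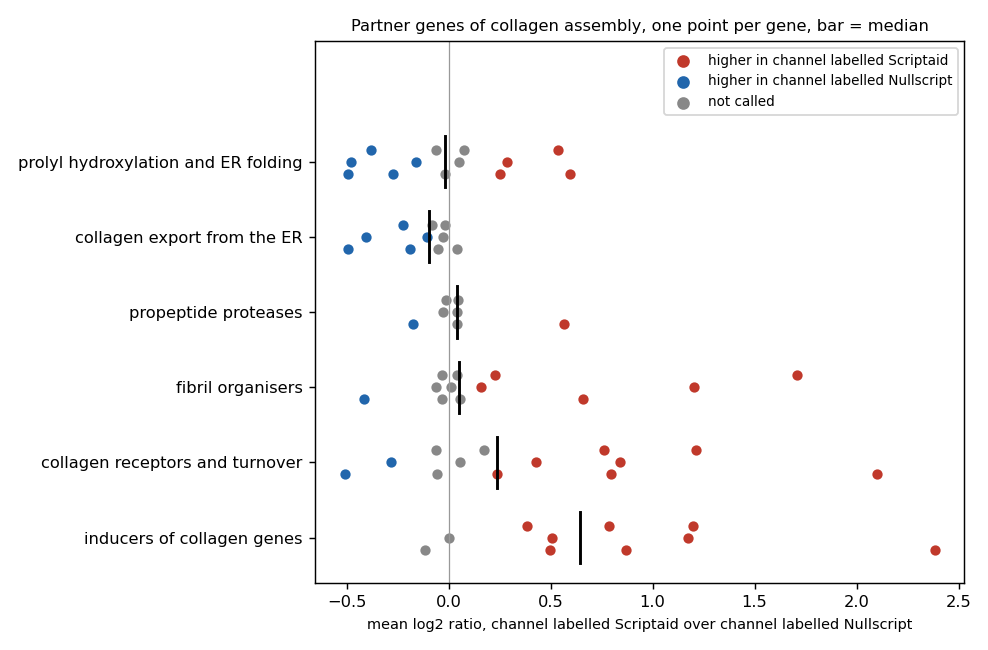
Mean log2 ratio of the Scriptaid channel over the Nullscript channel (horizontal axis) of 65 partner genes in 6 lists; each point is a gene, the bar is the median of the list and colours show the limma call. Inducers of collagen genes have the highest median (0.65) and export genes the lowest (-0.09).

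Genes in the lists of cell type markers differed in both directions. Over all genes tested, 22.5% were higher in the Scriptaid channel and 23.7% lower, and no list was tested against these shares. In the Scriptaid channel, 7 of 8 stroma markers were higher and 0 lower, with a summed normalised intensity of 103325 to 108592 against 74315 to 79060 in the Nullscript channel. Of 8 endothelial markers 6 were higher and 1 lower, with sums of 23728 to 24172 against 14826 to 17665. The kidney list had 7 of 10 higher and 0 lower, with sums of 48281 to 53451 against 30849 to 33877. Foxd1, at 0.56 ± 0.08, is the brightest gene of the kidney list and is also in the stroma list, so counts and sums of these lists share it. All markers of these 3 lists were well above background on all arrays. Pdgfra of the stroma was at 0.86 ± 0.17 and Cdh5 of the endothelium at 0.95 ± 0.20. Smooth muscle markers had 0 of 6 higher and 2 lower, bone markers 1 of 6 higher and 2 lower, skeletal muscle markers 1 of 6 higher and 2 lower, and adrenal cortex markers 0 of 5 higher and 1 lower. Macrophage markers had 3 of 6 higher and 1 lower, and neuron markers 1 of 6 higher and 4 lower. The part of these cells in the collagen ratios was not tested, and in whole kidneys fewer cells of a type and less RNA per cell cannot be told apart.

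Neighbouring collagen genes in the RefSeq gene order were set side by side. Col3a1 and Col5a2 are adjacent and were both higher in the Scriptaid channel, as were Col6a2 and Col6a1, with Col18a1 beyond 2 other protein-coding genes, and Col4a1 and Col4a2. The adjacent Col9a1 and Col19a1 were at 0.10 and -0.13, of which Col19a1 passed. In the pairs Col4a3 with Col4a4 and Col4a5 with Col4a6, no gene passed.

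Across 15 other ways of processing the arrays, 17 of the 34 called genes kept their call and direction in each. Not all 15 could move a ratio. The looser and the stricter filter on dim probes kept the same probes for these genes, and the dye-term fit had the same mean ratios. Probe choice could not change genes with 1 probe and no saturation, such as Col8a2, P3h3 and Pcolce. Higher in the Scriptaid channel under all 15 were Col4a1, Col4a2, Col5a2, Col6a1, Col6a3, Col13a1, Col15a1, P3h2, P3h3, Plod3, Pcolce and Loxl3. Lower in all of them were Col5a3, Col7a1, Col8a2, Col20a1 and Plod2. For Col8a2 the ratio ranged from -1.49 to -1.31, for P3h3 from 0.82 to 0.98 and for Pcolce from 0.59 to 0.73.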

How the data were processed

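RNA of kidneys treated with Scriptaid or Nullscript was compared on 6 two-colour arrays, and each drug's channel was taken from the dye fields. The scanner files hold the deposited intensity of each spot and background per channel, made with Agilent Feature Extraction 9.1.3.1 per the file headers, and a deposited log10 ratio of processed signals. The series value table holds the authors' log10 ratios, which equal those of the scanner files within 4.82e-06.

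Mean intensities were corrected with normexp (offset 50) and normalised by loess within each array, giving control spots no weight (limma 3.58.1 in R 4.3.3). Spots with outlier marks were left out, saturated spots kept, and spots of a probe averaged. Ratios were turned to log2 Scriptaid over Nullscript, and the 2 arrays of a replicate were averaged. Probes well above background on at least 3 arrays for either drug were kept (39405), and a gene is its brightest probe. The replicate mean was set against 0 by lmFit and eBayes in limma, with Benjamini-Hochberg adjustment over 26500 genes, and separately over probes. Levels per channel were taken after Aquantile normalisation between arrays. Of the 53 genes, 45 were named through the accession of their probe, and 1 further probe that the reference gives to Col11a1 lay outside the name rule.

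The labels give both arrays of a replicate as the same biological replicate. With the replicate as a block the consensus correlation was 0.097. All members could be named, per role at most 6 in full. Of each partner list, at most 3 that passed with the largest ratios could be named. P4ha1, P4ha2 and P3h1 were added to these after their values were seen. Members, lists and tests were chosen with earlier results of these data known. The alternatives were background correction, normalisation, probe filter, probe choice, saturated spots, dye orientation, slide, replicate block and leaving out each replicate.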

Additional observations from a re-analysis of the deposited data

Results flagged for a closer look

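Ratios of 3 genes differed between the arrays with Scriptaid in Cy5 and those with Scriptaid in Cy3, by the dye term of the limma fit on 6 arrays with the replicate as a block. The difference (Cy5 minus Cy3) was -1.05 for Serpinh1 (adjusted p = 0.000195), whose ratio had opposite signs on the 2 kinds of array. It was -0.36 for Col16a1 (adjusted p = 0.0210) and -0.35 for Plod2 (adjusted p = 0.0434). Plod2 was lower in the Scriptaid channel on both kinds of array, at -0.21 and -0.57. These 3 of 53 genes are 5.66%, and 5.43% of all genes had such a difference. Serpinh1 was saturated on all 6 arrays in the Scriptaid channel, and the part of saturation and of the dyes in the difference was not tested.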

How the results depend on the processing

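Of 34 called genes, 17 kept call and direction under all 15 alternatives, 17 lost the call under at least 1, and 2 of these changed sign. Some of the 15 could not move a ratio, as given above. Col1a1 was at 0.0171 and Col1a2 at 0.20 (adjusted p = 0.0303) with the brightest unsaturated probe. Col27a1 was at 0.16 with the mean of all probes (adjusted p = 0.0145). Serpinh1 was at 0.0261 under median centring and 0.415 on the arrays with Scriptaid in Cy3. Leaving out 1 replicate gave 14 to 21 higher and 6 to 10 lower collagen and processing genes, 9 to 13 lower partner genes and 4002 to 5698 lower genes in all, with the lowest counts without replicate 3, where 14 of the 34 calls were lost. A fit of all 6 arrays with a dye term and the replicate as a block gave 25 higher and 14 lower, kept all 34 calls and added 5. At a consensus correlation of 0.097, this fit takes the 2 arrays of a biological replicate as nearly independent, so its higher counts add no replicates. The median over the 53 genes was 0.0791 with the deposited log10 ratios, 0.104 with median centring, 0.106 with offset 0, 0.0816 with the mean of all probes, 0.107 with unsaturated probes, 0.0873 and 0.102 with Scriptaid in Cy3 or Cy5 alone, 0.0870 with the slide block, and 0.0867 to 0.0894 without 1 replicate. All of these are above 0. Saturation limits the ratios of Col1a1, Col1a2 and Serpinh1. The causes of these changes were not tested.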
